A study of Rattus norvegicus with 6 samples.

Results

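The genes described here encode 3 β subunits of the sodium-potassium ATPase (Na,K-ATPase), namely Atp1b1, Atp1b2 and Atp1b3, and 5 FXYD proteins, namely Fxyd1, Fxyd3, Fxyd5, Fxyd6 and Fxyd7. They are 8 of the 17327 genes in the count files, and each was found by its symbol. They were chosen by family, with the NRG1 against mock values of these same samples already known. The NRG1 values of these 8 genes are therefore given as a description. Where a member is named as up- or down-regulated, this is its place among the calls of the fit over all genes, and it is not independent evidence of a change. RNA was sequenced from primary Schwann cells, the glial cells that ensheathe peripheral axons, which had been isolated from the sciatic nerves of adult Wistar rats. Mock and NRG1 cells alike were starved for 18 h in medium with 2% serum and 10 µM forskolin, a compound that raises cAMP, so that both groups carried forskolin and low serum. Mock samples then received the ligand buffer, PBS with bovine serum albumin, and NRG1 samples received 10 nM soluble NRG1β1, a neuregulin that activates ErbB receptors, for 6 h. Each of 3 independent cultures gave 1 mock and 1 NRG1 sample, so n was 3 per group. The growth medium used before starvation contained NRG1β1 according to the study's methods and glial growth factor according to the labels, so the cells had met neuregulin before. Cultured Schwann cells lack axons, which limits how far they stand for a nerve.

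The Na,K-ATPase exports sodium and imports potassium at the cost of ATP, and so maintains the gradients on which membrane potential, cell volume and secondary transport depend. A catalytic α subunit carries the ions, and a glycosylated β subunit is needed for the folding and delivery of the pump to the membrane. Small single-span FXYD proteins bind to the assembled pump and adjust its affinity and turnover in a tissue-specific way. Glial cells of nerves use the pump to take up potassium released by firing axons. The β2 subunit, encoded by Atp1b2, was first described as the adhesion molecule on glia, and FXYD5, or dysadherin, is known for its influence on cell adhesion.

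Counts on genes ranged from 6821590 to 15475018 per library, and 3 counts, taken as the floor, corresponded to between 0.194 and 0.444 CPM, the counts of a gene scaled to the size of the library. Both libraries of culture 1 stood apart from the other 4. The summed level of the 6 Schwann cell markers was between 4738 and 5962 normalized CPM in culture 1 and between 12490 and 15870 in cultures 2 and 3, with all 6 markers present in every library. The summed level of the 7 fibroblast markers was between 53420 and 57720 normalized CPM in culture 1 and between 13690 and 22330 elsewhere. The fibroblast genes Thy1, Dcn and Lum had 0 counts in all 4 libraries of cultures 2 and 3, whereas Thy1 had 9493 counts in the mock and 8576 in the NRG1 library of culture 1. Other genes of that list went differently. Col1a1 was high in every library, at 28250 and 32090 normalized CPM in culture 1 and between 13410 and 21490 elsewhere. Col1a2 had 0 counts in culture 1 and at most 2 in any other library. The defining genes of leukocytes (Ptprc), endothelium (Pecam1 and Cdh5) and neurons (Rbfox3) were at 0 in all libraries. The summed levels of the macrophage and endothelial lists stayed between 3.23 and 15.09 normalized CPM, those of the neuronal list between 19.78 and 56.53, and those of the perineurial list between 392.5 and 797.4. Single genes carried most of the endothelial, neuronal and perineurial sums. Tek had between 5.866 and 14.8 CPM in the endothelial list. In the macrophage list Cd14 had 7.75 CPM in mock and 5.333 CPM in NRG1 of culture 1, and at most 0.3372 CPM elsewhere. Cd68 had between 2.004 and 3.68 CPM over all libraries. Tubb3 alone had between 19.78 and 55.46 CPM in the neuronal list. In the perineurial list Itga6 had between 296.2 and 751.6 CPM, whereas Cldn1 had at most 9 counts and Krt19 at most 2. In such bulk samples, fewer cells of a type and less RNA per cell cannot be told apart. For the members and the other genes named, values without culture 1 are given below where a call differs.

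After 6 h of NRG1, 1 of the 6 genes that passed the low-count filter was up-regulated, namely Fxyd5, and 2 were down-regulated, namely Atp1b2 and Fxyd6. The call required an adjusted p no higher than 0.01 together with a log2 fold change beyond 1 in either direction, in edgeR's quasi-likelihood test with the culture as a block. Among all 9740 genes tested, 1.56% were called up and 1.91% down by this rule. By the adjusted p alone, 6.31% of all genes were called up and 5.51% down, and the calls among the members were the same 3. Nothing about the family as a whole is read from these counts, since the members were chosen with this contrast known. Without the block 0 genes of all those tested were called by edgeR, with a smallest adjusted p of 0.139 and 1334 genes at an unadjusted p under 0.05. Atp1b3, Fxyd1 and Fxyd3 were not called. Atp1b1 and Fxyd7, which the filter removed, had counts at or near the floor. The ratio of NRG1 to mock had the same sign in all 3 cultures for Atp1b2, Atp1b3, Fxyd3, Fxyd5 and Fxyd6, as it did for 56% of all genes tested.

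**Figure D1:**
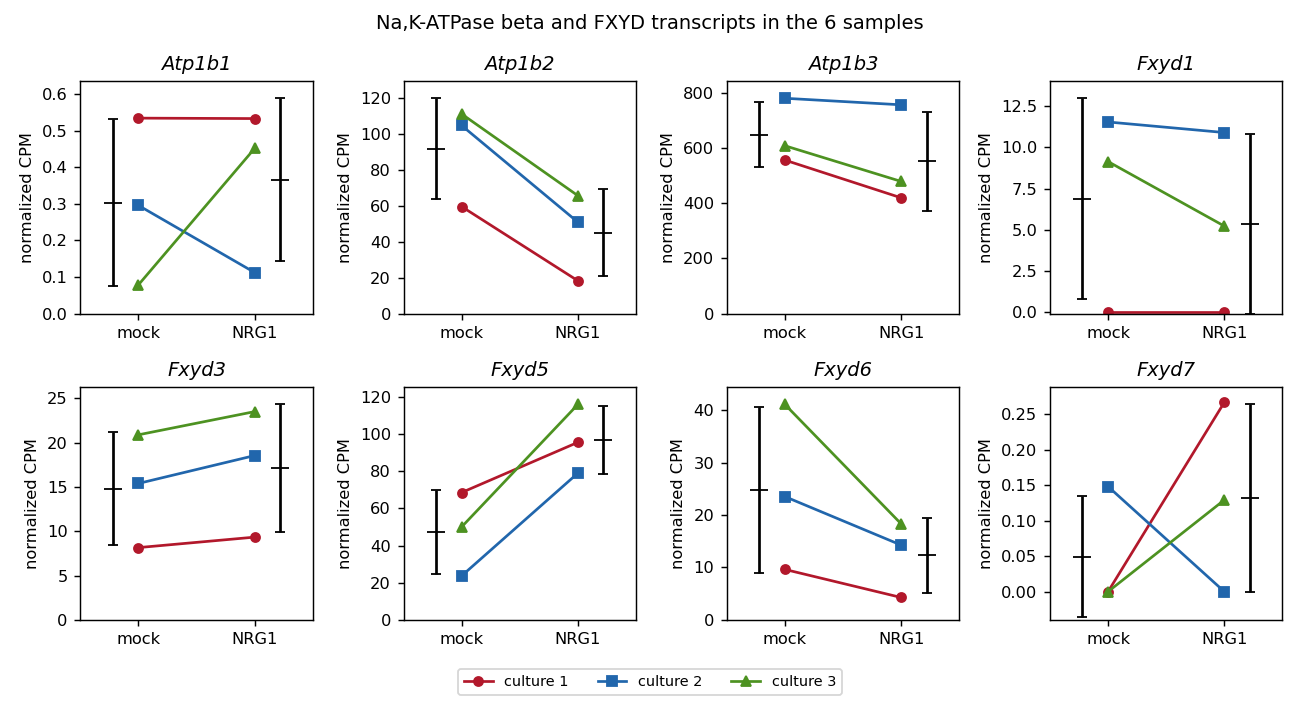
Normalized CPM (vertical axes, linear, a different scale in each panel) of the 8 genes in mock and NRG1 samples, with lines joining the samples of a culture and bars for the mean ± SD over 3 samples. Fxyd5 lies higher in NRG1 in each culture, from 23.68 to 68.55 in mock and from 79.01 to 116.0 in NRG1 samples, whereas Atp1b2 and Fxyd6 lie lower in each culture and Fxyd1 is at 0 in culture 1.

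Fxyd5 was the only tested member whose mock and NRG1 levels did not overlap, a separation that 20.1% of all genes tested showed. Its counts in mock samples 1, 2 and 3 were 513, 160 and 635, and those in the NRG1 samples were 717, 703 and 1797. After normalization these were 68.55, 23.68 and 50.03 CPM in mock and 95.59, 79.01 and 116.0 CPM in NRG1 samples. Every NRG1 sample thus lay above every mock sample, with the narrowest distance between the NRG1 sample of culture 2 and the mock sample of culture 1. The mean was 47.42 ± 22.5 CPM over the mock samples (SD, n = 3) and 96.87 ± 18.5 CPM over those with NRG1 (SD, n = 3). The fitted difference was 2.17-fold, a log2 fold change of 1.12 (standard error 0.18). Its size was uneven across cultures, with log2 ratios of 0.48, 1.73 and 1.21 in cultures 1, 2 and 3. Without culture 2 the log2 fold change was 0.86, under the fold threshold, and without culture 1 it was 1.46. The weakest response was thus in culture 1, the culture with the high fibroblast markers and the highest Fxyd5 level in mock. The part of these cells in it was not tested.

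Atp1b2, the β subunit typical of glia, was down-regulated. Its counts were 445, 706 and 1408 in mock cultures 1, 2 and 3, and 137, 452 and 1015 in the NRG1 samples. The normalized levels were 59.46, 104.5 and 110.9 CPM in mock and 18.26, 50.8 and 65.52 CPM in NRG1 samples. Each culture was lower with NRG1, but the groups overlapped, because the mock sample of culture 1 lay below the NRG1 sample of culture 3. The mean was 91.62 ± 28.0 CPM over the mock samples (SD, n = 3) and 44.86 ± 24.2 CPM over those with NRG1 (SD, n = 3). The fit gave a log2 fold change of -1.13 (standard error 0.157), which is 2.18-fold lower. The log2 ratios were -1.69, -1.04 and -0.76 in cultures 1, 2 and 3. Without culture 1 the log2 fold change was -0.89, so that the fold threshold was no longer met.

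Fxyd6, which encodes phosphohippolin, a FXYD protein best known from the brain, was the other down-regulated member and lay just past the fold threshold. Its counts were 72, 159 and 522 in mock cultures 1, 2 and 3, and 32, 127 and 284 in the NRG1 samples. In normalized terms they were 9.62, 23.53 and 41.13 CPM in mock and 4.27, 14.27 and 18.33 CPM in NRG1 samples. All 3 cultures were lower with NRG1, whereas the groups overlapped through the low mock sample of culture 1. The mean was 24.76 ± 15.8 CPM over the mock samples (SD, n = 3) and 12.29 ± 7.24 CPM over those with NRG1 (SD, n = 3). This amounted to 2.01-fold lower, a log2 fold change of -1.01 (standard error 0.166). Across cultures 1, 2 and 3 the log2 ratios were -1.14, -0.71 and -1.16. Without culture 1 the log2 fold change was -0.96, under the fold threshold. Without culture 3 it was -0.88, and the threshold of the adjusted p was missed as well (edgeR adjusted p = 0.0276).

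**Figure D2:**
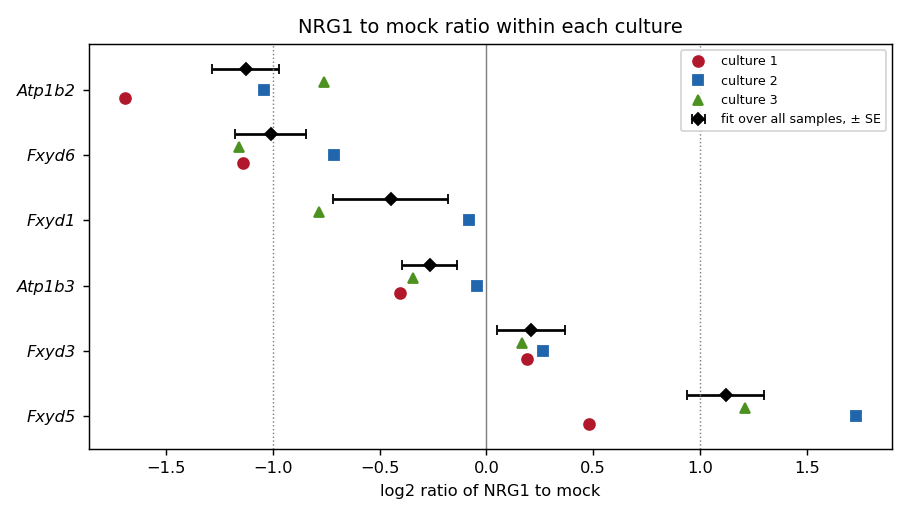
Log2 ratio of NRG1 to mock (horizontal axis) for the 6 members that passed the filter, with coloured points for each culture, black diamonds for the fit over all samples with its standard error, and dotted lines at the fold threshold. Atp1b2 and Fxyd6 lie left of 0 and Fxyd5 right of 0 in each culture, and no point is drawn for Fxyd1 in culture 1, where it had 0 counts.

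Atp1b3, which encodes the β subunit found in many tissues, was not called. It had 4164, 5274 and 7722 counts in mock cultures 1, 2 and 3, and 3149, 6733 and 7422 counts in the NRG1 samples. The mean was 648.4 ± 117 CPM over the mock samples (SD, n = 3) and 551.9 ± 180 CPM over those with NRG1 (SD, n = 3), and the groups overlapped. The log2 fold change was -0.27 (standard error 0.128), with log2 ratios of -0.41, -0.04 and -0.35 in the 3 cultures. Fxyd3, a FXYD protein studied mostly in epithelia and tumours, had 61, 104 and 265 counts in mock and 70, 165 and 364 counts in NRG1 samples. Its mean was 14.81 ± 6.38 CPM over the mock samples (SD, n = 3) and 17.12 ± 7.19 CPM over those with NRG1 (SD, n = 3), and the log2 fold change was 0.21 (standard error 0.159). The cultures differed little in that ratio, which was 0.19, 0.27 and 0.17, while their levels of Fxyd3 ranged from 8.15 to 23.5 CPM.

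Fxyd1, which encodes phospholemman, the FXYD protein of heart and skeletal muscle, was missing from 1 culture and was not called. It had 0 counts in both libraries of culture 1, 78 in mock and 97 in NRG1 of culture 2, and 116 in mock and 81 in NRG1 of culture 3. The normalized levels in these last 4 libraries were 11.54, 10.9, 9.14 and 5.23 CPM. Between mock and NRG1 samples the log2 fold change was -0.45 (standard error 0.268). It was -0.80 without culture 2 and -0.07 without culture 3. Atp1b1, the β subunit that is widespread in epithelia and neurons, had between 1 and 7 counts per library. Fxyd7, known from neurons, had between 0 and 2 counts. At this depth no difference in these 2 genes was detectable, and no fold is given.

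The composition of each family was then described as shares of counts within a library, which do not depend on the scaling of libraries. Counts also depend on transcript length, so a share shows a shift between samples and not which protein is the more abundant. Of the counts on Atp1b2 and Atp1b3 together, Atp1b2 took 9.66%, 11.8% and 15.4% in mock cultures 1, 2 and 3, and 4.17%, 6.29% and 12% in the NRG1 samples. In each culture the 95% Wilson intervals of mock and NRG1 were apart, the closest being those of culture 3, from 14.7% to 16.2% in mock and from 11.4% to 12.7% in NRG1. Of the counts on the 5 FXYD genes, Fxyd5 took 79.4%, 31.9% and 41.3% in mock and 87.3%, 64.4% and 71.1% in NRG1 samples. The share was higher with NRG1 in all 3 cultures, although the mock sample of culture 1 exceeded the NRG1 samples of cultures 2 and 3. The Wilson intervals cover counting error only, and since the same counts chose the genes these shares are a description.

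**Figure D3:**
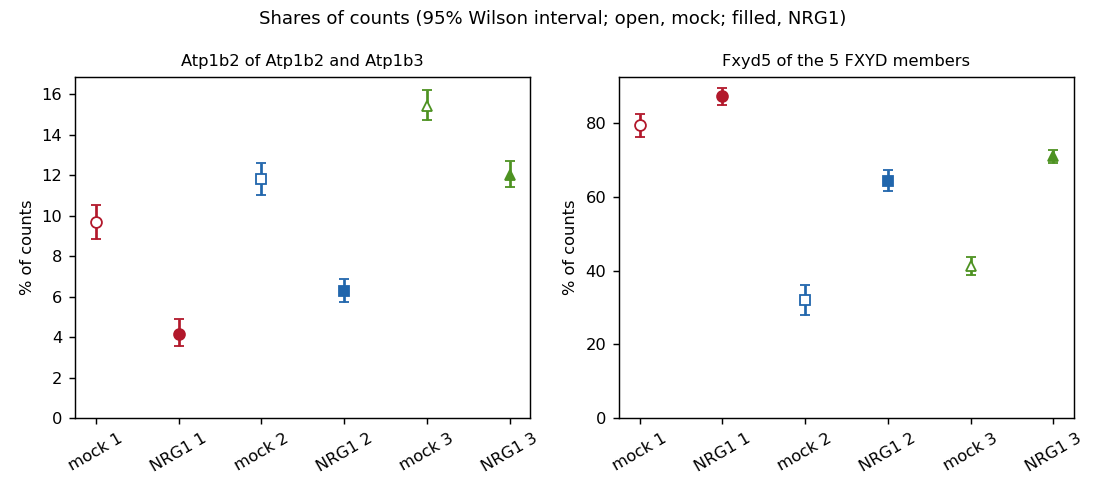
Share of counts in % (vertical axes, starting at 0) taken by Atp1b2 among Atp1b2 and Atp1b3 counts, left, and by Fxyd5 among the 5 FXYD genes, right, in each sample, with 95% Wilson intervals. Open symbols are mock and filled symbols NRG1, and within each culture Atp1b2 takes a smaller share with NRG1, 12% against 15.4% in culture 3, and Fxyd5 a larger one.

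Differences between the 3 cultures are a measure that the choice of the genes did not use, and they were tested by the culture terms of the same fit. At an adjusted p of at most 0.01, 5 of the 6 tested members differed between cultures, against 23.4% of all genes tested. These were Fxyd1 (adjusted p = 1.55e-06), Fxyd6 (adjusted p = 8.61e-06), Atp1b2 (adjusted p = 0.000234), Fxyd3 (adjusted p = 0.000315) and Atp1b3 (adjusted p = 0.00745), all by edgeR. Fxyd5 missed the threshold with an adjusted p of 0.0141. Fxyd1 passed the low-count filter only through cultures 2 and 3, so its p is given as a description. Genes counted only in culture 1, such as Thy1 and Dcn, were removed by that filter. For Fxyd1 the 23.4% is therefore not a like comparison. Averaged over mock and NRG1, the highest culture exceeded the lowest by 2.06 on the log2 CPM scale for Fxyd6, 1.36 for Atp1b2, 1.32 for Fxyd3, 0.9 for Fxyd5 and 0.67 for Atp1b3. The median of that range over all genes tested was 0.45. Fxyd6, Atp1b2 and Fxyd3 were lowest in culture 1 and highest in culture 3. Fxyd5 had its lowest level in culture 2, and Atp1b3 its highest. Without culture 1, 2.47% of all genes and 1 member differed between cultures 2 and 3. That member was Fxyd5, with an adjusted p of 0.00142. The other 5 then had adjusted p-values between 0.0942 for Fxyd6 and 0.7 for Atp1b2. The difference of Atp1b3 was also lost without culture 2 (edgeR adjusted p = 0.244).

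The absence of Fxyd1 from culture 1 was followed further, with cut-offs chosen after its values were seen. Its lowest level elsewhere, 5.23 CPM, was at least 13-fold higher than the floor of 3 counts per library in culture 1, which was 0.401 CPM. Genes with 0 counts in both libraries of culture 1 and at least 10 counts in each of the other 4 libraries numbered 4, namely Fxyd1, Bche, Gpm6a and Tmem132d. At a minimum of 50 counts Fxyd1 was the only one. The same search for genes missing from culture 2 or from culture 3 returned 0 genes at each of these minimums. Schwann cell markers were lower in culture 1 but present, with Sox10, a transcription factor of the Schwann cell lineage, at 395.9 CPM in mock and 477.3 CPM in NRG1, against 1063 to 1258 CPM elsewhere. Fxyd1 had 10.6 and 10.3 counts per 1000 Sox10 counts in mock and NRG1 of culture 2, and 7.78 and 4.16 in culture 3. The ratio was 0 in both libraries of culture 1. What part the other cells of culture 1 had in the absence of Fxyd1 was not tested.

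**Figure D4:**
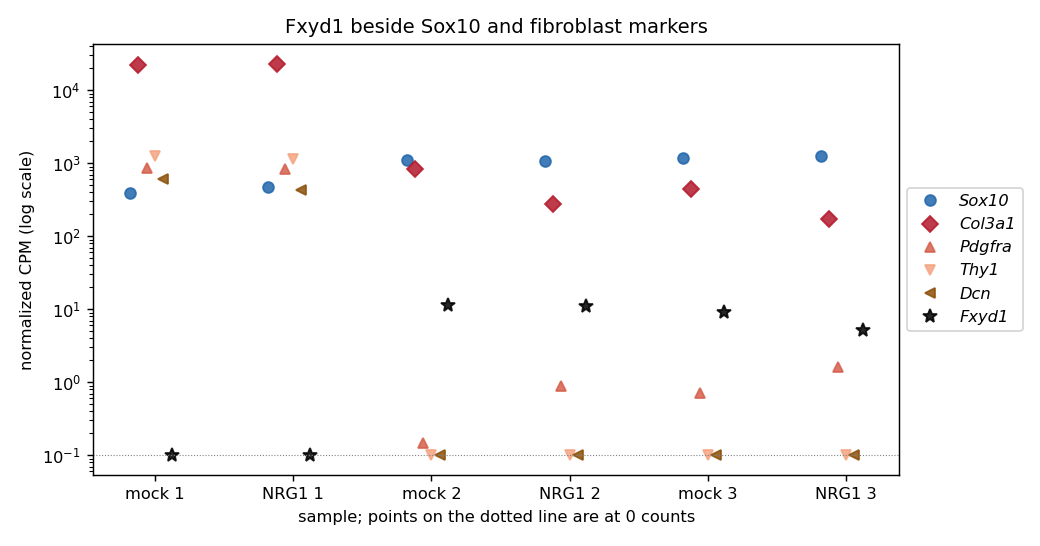
Normalized CPM on a log scale (vertical axis) of Fxyd1, the Schwann cell marker Sox10 and the fibroblast markers Col3a1, Pdgfra, Thy1 and Dcn in each of the 6 libraries (horizontal axis), with points on the dotted line at 0 counts. Fxyd1 is at 0 in both libraries of culture 1, where the fibroblast markers drawn are high and Sox10 is present at 395.9 and 477.3 CPM. It lies between 5.23 and 11.54 CPM in the other 4. The fibroblast markers Col1a1, Col1a2 and Lum are not drawn. Of these, Col1a1 was high in every library and Col1a2 had at most 2 counts in any.

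Set against Sox10 in this way, which was also chosen after seeing the data, the members showed different orders of the cultures. Fxyd3 ranged only from 14.1 to 20.6 counts per 1000 Sox10 counts over the 6 libraries. Fxyd5 had 173 and 200 counts per 1000 Sox10 counts in the mock and NRG1 libraries of culture 1, compared with 21.7 and 74.3 in culture 2 and 42.6 and 92.2 in culture 3. Atp1b3 was likewise highest in culture 1, with 1410 in mock and 880 in NRG1 against 381 to 715 elsewhere. For Atp1b2 the ratio was 150, 95.7 and 94.4 in mock and 38.3, 47.8 and 52.1 in NRG1 samples, so that on this scale the groups did not overlap. For Fxyd6 it was 24.3, 21.6 and 35 in mock and 8.94, 13.4 and 14.6 in NRG1 samples, again without overlap. Fxyd5, whose groups were apart by normalized CPM, overlapped on this scale, since its mock library of culture 1 exceeded the NRG1 libraries of cultures 2 and 3. How many of all genes separate on this scale was not computed, so these separations are a description only. Which cells in culture 1 carried these transcripts was not tested.

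Of the other subunit genes of the pump, Atp1a4, Atp1b4, Fxyd2 and Fxyd4 had between 0 and 4 counts in every library and were not tested.

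Among 11 genes that bind, anchor or regulate the pump, 7 were tested, with a median log2 fold change of 0.21 against -0.03 over all genes tested. At an adjusted p of 0.01 or less, edgeR called 0 of them up and 1 down, against 6.31% and 5.51% of all genes tested. With the fold threshold added, 0 were called in either direction. At an unadjusted p under 0.05, 2 of these genes were up and 2 down, and DESeq2 called 1 up and 2 down. The gene called down by edgeR was Agrn, which encodes agrin, a matrix proteoglycan known to bind the pump. It had 260.3, 361.9 and 333.4 CPM in mock cultures 1, 2 and 3, and 188.1, 155.7 and 264.8 CPM in the NRG1 samples. It fell by 0.67 on the log2 scale (standard error 0.157, edgeR adjusted p = 0.00721), a call lost without culture 2 (edgeR adjusted p = 0.0329). Near the threshold were Sgk1, a kinase that raises sodium transport, with a log2 fold change of 0.52 (edgeR adjusted p = 0.0108), and Ank3, a membrane anchor protein, with -0.55 (edgeR adjusted p = 0.014). Without culture 1, Sgk1 passed at 0.62 (edgeR adjusted p = 0.00536). Cav1, which encodes the caveolar protein caveolin, then also passed, at 0.71 (edgeR adjusted p = 0.00118) against 0.35 over all cultures. Within culture 1 Cav1 was lower with NRG1, at a log2 ratio of -0.32. In cultures 2 and 3 it was higher, at 0.72 and 0.68. Of 13 other P-type ATPases, the family of ion pumps to which the α subunits belong, 6 were tested and 0 were called in either direction by edgeR, with a median of 0.01. DESeq2 also called 0 of them, and at an unadjusted p under 0.05 the plasma membrane calcium pump gene Atp2b4 was the 1 that passed (log2 fold change 0.60, edgeR adjusted p = 0.104).

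Among 17 sodium and potassium carriers and channels, 10 were tested, with a median log2 fold change of -0.11. By the edgeR adjusted p alone, at 0.01 or less, 1 was up and 2 were down, against 6.31% and 5.51% of all genes tested. With the fold threshold added, 0 were called in either direction. Scn7a, which encodes a sodium channel of the glial and sodium-sensing type, had 864.2, 1719 and 1450 CPM in mock cultures 1, 2 and 3, and 493, 691.8 and 917.1 CPM in the NRG1 samples. It was lower with NRG1 in each culture and fell by 0.93 on the log2 scale (standard error 0.147, edgeR adjusted p = 0.000521). Slc12a7, which encodes a potassium-chloride cotransporter, rose from 118.3 ± 38.6 CPM to 171.1 ± 55.7 CPM (SD, n = 3), or by 0.54 on the log2 scale (standard error 0.124, edgeR adjusted p = 0.00655). That call was lost without culture 1 (edgeR adjusted p = 0.0347) and without culture 3 (edgeR adjusted p = 0.0645). Slc4a7, which encodes a sodium-bicarbonate cotransporter, passed without culture 2, with a log2 fold change of 0.78 (edgeR adjusted p = 0.000785) against 0.52 over all cultures.

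Several of the FXYD genes are neighbours. In the RefSeq gene order of GRCr8, a later rat assembly than the rn5 used for the counts, Fxyd5, Fxyd7, Fxyd1, Lgi4 and Fxyd3 follow each other. Fxyd5, at the edge of this row, was up-regulated, while Fxyd7 beside it had at most 2 counts and Fxyd1 and Fxyd3 were not called. Lgi4, which encodes a secreted Schwann cell protein needed for myelination, was at 0.19 on the log2 fold change scale (standard error 0.119, edgeR adjusted p = 0.282). Lgi4 was counted in all libraries, with 1307 counts in mock and 1542 in NRG1 of culture 1, where Fxyd1 next to it had 0. The annotated spans of Lgi4 and Fxyd3 overlap in that assembly, as do those of Nme7 and Atp1b1, and it is not known from the sources used here whether the counting used strand, so reads in the shared parts may be assigned to either gene or to none. Beside Atp1b3 lies Tfdp2, a partner of E2F factors, which fell by 1.26 on the log2 scale (standard error 0.175, edgeR adjusted p = 0.000195) although Atp1b3 itself was not called.

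Promoter windows from 250 bases before to 50 bases after the start site were available for 5 of the 8 members in the RefSeq table of GRCr8. The windows of the 3 called genes and of Fxyd1 are shown, because these carry the differences described above, 5′ to 3′ on the strand of the gene and with matches to the searched motifs in capitals. They lie at chr1:95404673-95404972 on the minus strand for Fxyd5, the first of its 2 windows, at chr10:54823659-54823958 on the minus strand for Atp1b2, at chr8:54575575-54575874 on the plus strand for Fxyd6 and at chr1:95418531-95418830 on the minus strand for Fxyd1.
Fxyd5: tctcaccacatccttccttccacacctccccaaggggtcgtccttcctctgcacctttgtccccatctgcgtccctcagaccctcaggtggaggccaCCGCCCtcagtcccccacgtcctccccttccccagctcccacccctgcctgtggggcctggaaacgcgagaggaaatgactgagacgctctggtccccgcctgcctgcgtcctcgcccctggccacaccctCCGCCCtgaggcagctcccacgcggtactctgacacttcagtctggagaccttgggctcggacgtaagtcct
Atp1b2: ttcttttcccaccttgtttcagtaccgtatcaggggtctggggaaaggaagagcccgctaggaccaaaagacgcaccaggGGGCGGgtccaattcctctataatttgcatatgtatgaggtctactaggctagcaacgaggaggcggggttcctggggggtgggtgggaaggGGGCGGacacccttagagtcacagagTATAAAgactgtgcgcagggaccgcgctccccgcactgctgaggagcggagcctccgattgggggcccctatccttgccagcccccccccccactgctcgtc
Fxyd6: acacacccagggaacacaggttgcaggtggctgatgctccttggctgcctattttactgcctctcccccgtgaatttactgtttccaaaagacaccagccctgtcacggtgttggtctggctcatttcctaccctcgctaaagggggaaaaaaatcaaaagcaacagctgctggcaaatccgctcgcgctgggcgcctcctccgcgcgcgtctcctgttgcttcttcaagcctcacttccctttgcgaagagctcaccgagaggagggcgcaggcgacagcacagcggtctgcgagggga
Fxyd1: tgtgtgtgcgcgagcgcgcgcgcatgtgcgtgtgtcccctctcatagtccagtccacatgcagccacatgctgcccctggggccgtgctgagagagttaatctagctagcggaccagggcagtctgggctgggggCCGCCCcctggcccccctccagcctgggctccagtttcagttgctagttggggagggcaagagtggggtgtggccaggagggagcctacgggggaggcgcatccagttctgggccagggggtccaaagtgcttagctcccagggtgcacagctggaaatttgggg

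The motifs were searched on both strands. They were the GC box GGGCGG, present in 33.1% of all 33469 rat windows of that length, the TATA box TATAAA (14.2%), the AP-1 site TGANTCA (7.33%), the CRE TGACGTCA (1.83%), its shorter core TGACG (21.2%, which also counts the whole site), the E-box CACGTG (6.42%), a SOX motif AACAAT (11.7%) and an EGR motif GCGNGGGCG (4.98%). In the Fxyd5 window the capitals mark GC boxes on the opposite strand that begin at -153 and -22 from the start site, and its other window had 0 matches. In the Atp1b2 window they mark GC boxes at -170 and -78 and a TATA box at -52. The Fxyd1 window had a GC box on the opposite strand at -115, and the Fxyd6 window had 0 matches to any of these motifs. The window of Atp1b3, not shown, had 6 GC boxes and 2 of the shorter CRE cores. Matches describe the letters of the window only, since no binding was measured here.

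Across the 6 samples, the genes whose log2 CPM was most like that of Fxyd5, the member with the highest log2 fold change, were Peg12 (Pearson r = 0.997), Fez2 (r = 0.99) and Fkbp10 (r = 0.983). Their own log2 fold changes were small, at 0.16, 0.18 and 0.20, because r follows the shape of a profile over samples and not its size. For Atp1b2, the member with the lowest, they were Pcdhb12 (r = 0.997), Syt3 (r = 0.995) and Pknox2 (r = 0.992), with log2 fold changes of -0.70, -1.08 and -0.87. An r over 0.9 was reached by 101 of 9739 genes for Fxyd5 and by 288 for Atp1b2. With 6 samples that share 3 cultures and their depths, these correlations describe the profiles and no p is given.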

How the data were processed

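RNA of 6 samples was sequenced, and per the labels and the study's methods the authors mapped the reads to rn5 with TopHat 2.0.10 and counted them per RefSeq gene with htseq (version not given in the sources used here). The values deposited by the authors are raw read counts per gene symbol, without normalization. Alignments assigned to genes made up 47.0% to 49.9% of a file, and the summary lines for all others were left out of library sizes and tests. Strand settings are not given in the sources used here.

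With edgeR 4.0.16 in R 4.3.3, filterByExpr (minimum count 10) kept 9740 genes and dropped 7587. Libraries were scaled by TMM, and the quasi-likelihood fit took condition plus a replicate block, because the study paired its samples by culture. P-values were adjusted over all genes by the Benjamini-Hochberg method. A standard error was obtained by dividing a log2 fold change by the root of its F statistic. Ratios of single cultures used log2 CPM computed at prior count 2. Differences between cultures were tested by the replicate terms of that model. The pairing comes from the study's independent cultures, numbered in the labels. Across genes, deviations from group means correlated with r of 0.91, 0.67 and 0.81 for the same number, and between -0.80 and 0.51 otherwise. Groups and replicate numbers were taken from the labels. No 2 libraries agreed within sampling noise.

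The members and all gene lists were chosen with earlier results of these data known. The genes named are the members, the other pump subunits, list genes called at an adjusted p of at most 0.01, neighbours of the members, the 3 genes most like the extreme members, and cell type markers. Sgk1, Ank3, Cav1, Slc4a7, Atp2b4 and the genes absent from culture 1 were named after their values were seen. Alternatives were no block, DESeq2 1.42.0, RLE scaling, library totals, no filter, each replicate left out, and the fold threshold inside the test. The scripts were tested on simulated data. Transcript lengths were not used here, so levels of different genes are not compared. Some genes of these lists are not reported here.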

Additional observations from a re-analysis of the deposited data

How the results depend on the processing

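Read on the alternatives listed in the methods, no result changed direction. Without the replicate block, edgeR called 0 genes up and 0 down, 0 members up and 0 down, and 0 of the other pump and transport genes up and 0 down. In that unpaired fit the smallest adjusted p was 0.139 and 1334 genes had an unadjusted p under 0.05. With the fold threshold inside the test, 13 genes were called up and 9 down, against 152 and 186. The 3 called members lay close to that threshold, at 1.12 (standard error 0.18) for Fxyd5, -1.13 (0.157) for Atp1b2 and -1.01 (0.166) for Fxyd6. The main call does not test whether their changes exceed it. Of the other pump and transport genes, 2 were up with DESeq2, 2 with RLE scaling and 3 with no filter, against 1. With no filter, 3543 genes differed between cultures, against 2278. Leaving out each replicate gave 122 to 299 genes down, 1 to 2 members down, 0 to 2 of the other genes up, 245 to 3783 genes differing between cultures, and 1 to 6 members doing so. The lowest of the last 2 came without replicate 1, and the 3783 without replicate 2. Only 1 member was down without replicate 3, where the call of Fxyd6 was lost. For single genes, 77 log2 fold changes kept their side of the adjusted p threshold and 11 were lost, and among culture tests 32 kept it, 6 were lost and 4 were gained. Atp1b3 no longer differed between cultures without replicate 2 (edgeR adjusted p = 0.244), and Fxyd5 did so with DESeq2 (adjusted p = 0.00639). The causes were not tested. Depth limits Atp1b1, Fxyd7 and the low counts of Fxyd1.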
